A study of Mus musculus with 14 samples.

Results

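A 40 Mb interval of mouse chromosome 14, from 70 to 110 Mb on genome build mm9, held 896 of the 24416 peaks in 8 ChIP-seq peak lists of mouse embryonic stem (mES) cells. Every peak whose centre lay in the interval was taken as a member. The interval was chosen from the positions of the peaks in these same lists, so the number of peaks per Mb is given as a description, with no test. The NANOG list gave 406 members, SIM2 B8 118, MED1 99, SIM2 C4 78, OCT4 74, MED12 64, SIM2 A6 51 and EB3 6.

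The study mapped where the transcription factor SIM2 binds in mES cells and which other factors occupy those places. The clones A6, B8 and C4 carry a Sim2 transgene fused to the FLAG epitope under a modified human CMV promoter that is active once tetracycline is removed. The EB3 parental line (EBRTcH3) lacks Sim2-FLAG but has the same inducible locus with a Venus reporter. All 4 lines were kept without tetracycline for 26 h. FLAG was immunoprecipitated in the 3 clones, which serve as the replicates, and in EB3 as the control. The NANOG, OCT4, MED1 and MED12 ChIP used the A6 cross-linked pellets, with a single library each. These 4 lists and the A6 FLAG list therefore share their cells, and all lines descend from EB3. The lists hold no expression values, so the embryonic stem cell label was not checked against marker levels.

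SIM2 is a bHLH-PAS transcription factor encoded on the human chromosome that is trisomic in Down syndrome, and it binds DNA together with ARNT. NANOG and OCT4 are core regulators of the pluripotent state and often occupy the same enhancers. MED1 and MED12 are subunits of Mediator, the complex that links factors bound at enhancers to RNA polymerase II and that is abundant at strong enhancers. HOMER, the peak caller used by the authors, marks places where ChIP tags pile up over the input library and over the surrounding DNA.

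The sequences below show both kinds of member that the interval held, first places where several lists coincided and then peaks found in 1 list only. All are 200 bp windows of the mm9 forward strand, centred on a SIM2 site or on a peak. Capitals mark exact matches on either strand to the octamer ATGCAAAT, bound by OCT4, or to ACAAAG, a core recognised by SOX factors. The first 3 windows lie between 26081 and 41637 bp downstream of the start of Klf5, which encodes a zinc-finger factor that maintains ES cell self-renewal. They span chr14:99723892-99724091, chr14:99738997-99739196 and chr14:99739448-99739647, all intergenic. The next lies in an intron of Tnfsf11, the gene of the cytokine RANKL, at chr14:78688921-78689120, where the highest NANOG and OCT4 scores of the interval were found. The last lies at chr14:81398962-81399161, intergenic and 998952 bp downstream of the start of Olfm4, its nearest gene.
Klf5 site 1: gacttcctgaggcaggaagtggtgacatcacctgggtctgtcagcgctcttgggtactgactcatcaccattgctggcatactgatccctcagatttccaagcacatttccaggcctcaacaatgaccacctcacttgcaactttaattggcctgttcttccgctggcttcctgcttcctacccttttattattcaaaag
Klf5 site 2: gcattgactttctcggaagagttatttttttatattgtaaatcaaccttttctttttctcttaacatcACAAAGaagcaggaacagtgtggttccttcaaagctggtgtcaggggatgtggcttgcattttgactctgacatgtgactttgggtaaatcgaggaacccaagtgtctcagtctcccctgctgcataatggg
Klf5 site 3: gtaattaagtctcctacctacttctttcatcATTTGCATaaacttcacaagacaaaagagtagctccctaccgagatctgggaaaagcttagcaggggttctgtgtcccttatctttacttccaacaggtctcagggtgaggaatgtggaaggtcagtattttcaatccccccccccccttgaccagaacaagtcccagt
Tnfsf11 site: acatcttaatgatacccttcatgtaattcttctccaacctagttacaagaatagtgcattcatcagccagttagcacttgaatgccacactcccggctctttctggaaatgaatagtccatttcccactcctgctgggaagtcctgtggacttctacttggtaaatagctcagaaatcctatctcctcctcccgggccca
Olfm4 site: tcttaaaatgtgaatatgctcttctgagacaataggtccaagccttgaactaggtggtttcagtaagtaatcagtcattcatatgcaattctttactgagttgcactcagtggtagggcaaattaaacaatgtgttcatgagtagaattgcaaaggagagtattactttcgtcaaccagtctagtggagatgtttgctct

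The next windows hold the member with the highest score among those that B8, C4, EB3 or MED1 alone contained. The windows of B8 (chr14:82358504-82358703), C4 (chr14:85126330-85126529) and EB3 (chr14:82827792-82827991) are intergenic, and that of MED1 (chr14:87837022-87837221) is in an intron of Tdrd3. They are poor in G and C, with 26% in the B8 window, 27.5% in C4, 25.5% in EB3 and 32% in MED1, against 49%, 42% and 46% in the windows at Klf5.
B8 alone: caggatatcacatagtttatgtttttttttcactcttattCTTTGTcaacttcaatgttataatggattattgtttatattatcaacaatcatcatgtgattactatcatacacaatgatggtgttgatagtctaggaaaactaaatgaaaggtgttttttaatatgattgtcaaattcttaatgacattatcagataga
C4 alone: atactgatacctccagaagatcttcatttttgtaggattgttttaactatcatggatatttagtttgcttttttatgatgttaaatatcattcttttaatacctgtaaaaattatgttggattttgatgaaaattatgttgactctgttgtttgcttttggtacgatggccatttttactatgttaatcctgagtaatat
EB3 alone: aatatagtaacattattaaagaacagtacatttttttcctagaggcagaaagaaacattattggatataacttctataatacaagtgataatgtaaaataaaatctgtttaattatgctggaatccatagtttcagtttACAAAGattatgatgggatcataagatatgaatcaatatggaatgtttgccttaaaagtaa
MED1 alone: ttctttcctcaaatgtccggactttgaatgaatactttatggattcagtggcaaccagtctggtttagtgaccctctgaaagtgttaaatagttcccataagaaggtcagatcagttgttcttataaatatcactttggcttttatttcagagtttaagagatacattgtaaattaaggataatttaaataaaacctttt

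The interval is poor in genes. It holds the starts of 130 protein-coding genes, 3.25 per Mb, and the rest of chromosome 14 holds 820, 10.04 per Mb. Its GC content was 39.1% against 42.2%, and 20.8% of it lay within a gene against 45.2%. Of the 130 genes, 83 start between 70 and 80 Mb, 9 between 80 and 90 Mb, 10 between 90 and 100 Mb and 28 between 100 and 110 Mb. These 4 stretches held 272, 270, 195 and 159 members.

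All 8 lists had more peaks per Mb inside the interval than in the rest of chromosome 14. The intervals given with these densities are exact Poisson or binomial 95% confidence intervals, which cover counting error only. A6 had 1.28 peaks per Mb (0.949 to 1.68) inside and 0.735 (0.561 to 0.946) in the rest, a ratio of 1.73 (1.17 to 2.56). B8 had 2.95 (2.44 to 3.53) inside and 0.894 (0.701 to 1.12) in the rest, a ratio of 3.30 (2.44 to 4.48). C4, the clone with the fewest peaks, had 1.95 (1.54 to 2.43) inside and 0.257 (0.159 to 0.393) in the rest, a ratio of 7.58 (4.63 to 12.9). The clones differed widely in this ratio, with a mean of 4.205 ± 3.026 (SD, n = 3). Without C4 the mean of the other clones was 2.52, and without A6 it was 5.44.

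The control line showed the same direction with few peaks. EB3 had 6 members and 3 peaks in the rest, a ratio of 4.08 whose interval of 0.872 to 25.2 includes 1. NANOG had 10.2 peaks per Mb (9.19 to 11.2) inside and 5.65 (5.14 to 6.19) in the rest, a ratio of 1.80 (1.57 to 2.06). The ratio of OCT4 was 2.22 (1.58 to 3.13). MED12 reached 4.67 (2.95 to 7.56). MED1 had the highest ratio of the 8 lists, 9.18 (5.74 to 15.3), with 2.48 peaks per Mb (2.01 to 3.01) inside and 0.269 (0.169 to 0.408) in the rest. Its 99 members made up 13.0% of all MED1 peaks, and the 78 members of C4 made up 12.4% of that list, against 2.74% for NANOG and 2.14% for A6.

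**Figure D1:**
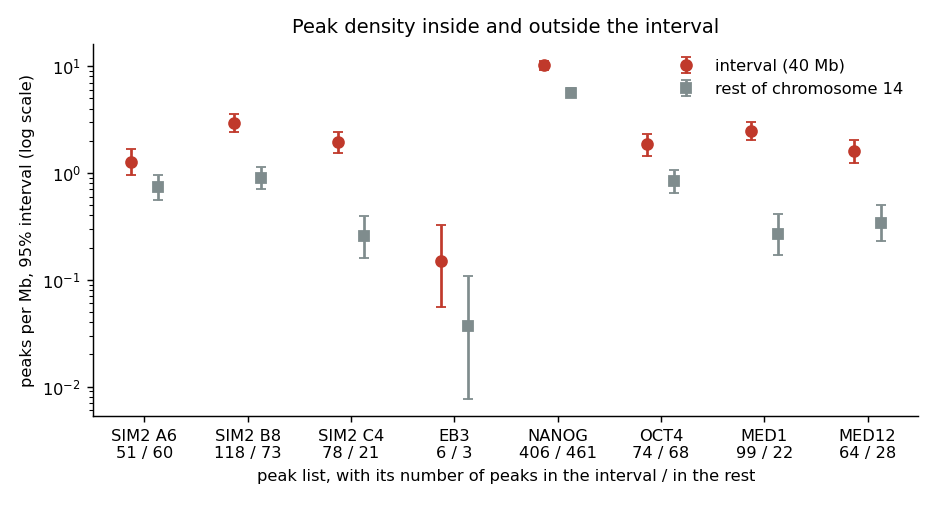
Peaks per Mb (log scale) in each of the 8 lists, inside the interval (circles) and in the rest of chromosome 14 (squares), with exact Poisson 95% intervals and the numbers of peaks under each list. The circle lies above the square in all 8 lists, with the widest gaps in MED1 and C4.

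With the interval included, chromosome 14 had the most peaks per Mb of the 19 autosomes in B8, C4, NANOG, MED1 and MED12. It ranked 2nd in EB3, 6th in OCT4 and 11th in A6. The rest of the chromosome lay between 0.744 times (A6) and 1.18 times (EB3) the density of the other autosomes.

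The members were not spread evenly. NANOG, OCT4, MED12 and A6 were densest between 75 and 80 Mb, where 97 NANOG, 19 OCT4, 17 MED12 and 19 A6 peaks lay. B8 and C4 were densest between 80 and 85 Mb, with 32 and 20 peaks, and MED1 between 85 and 90 Mb, with 25. A6 had 4 members in the whole stretch from 80 to 90 Mb, which holds 9 gene starts, while B8 had 45, C4 39 and MED1 45. At the lower edge the outermost member was a NANOG peak near Sorbs3 (chr14:70641519-70641685, score 12), and the nearest peak outside it was a NANOG peak of score 17 near Rps2-ps5 (chr14:69772562-69772728). At the upper edge a NANOG peak of score 10 lay on either side, at chr14:109941132-109941298 and at chr14:110152526-110152692, both near Slitrk1.

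**Figure D2:**
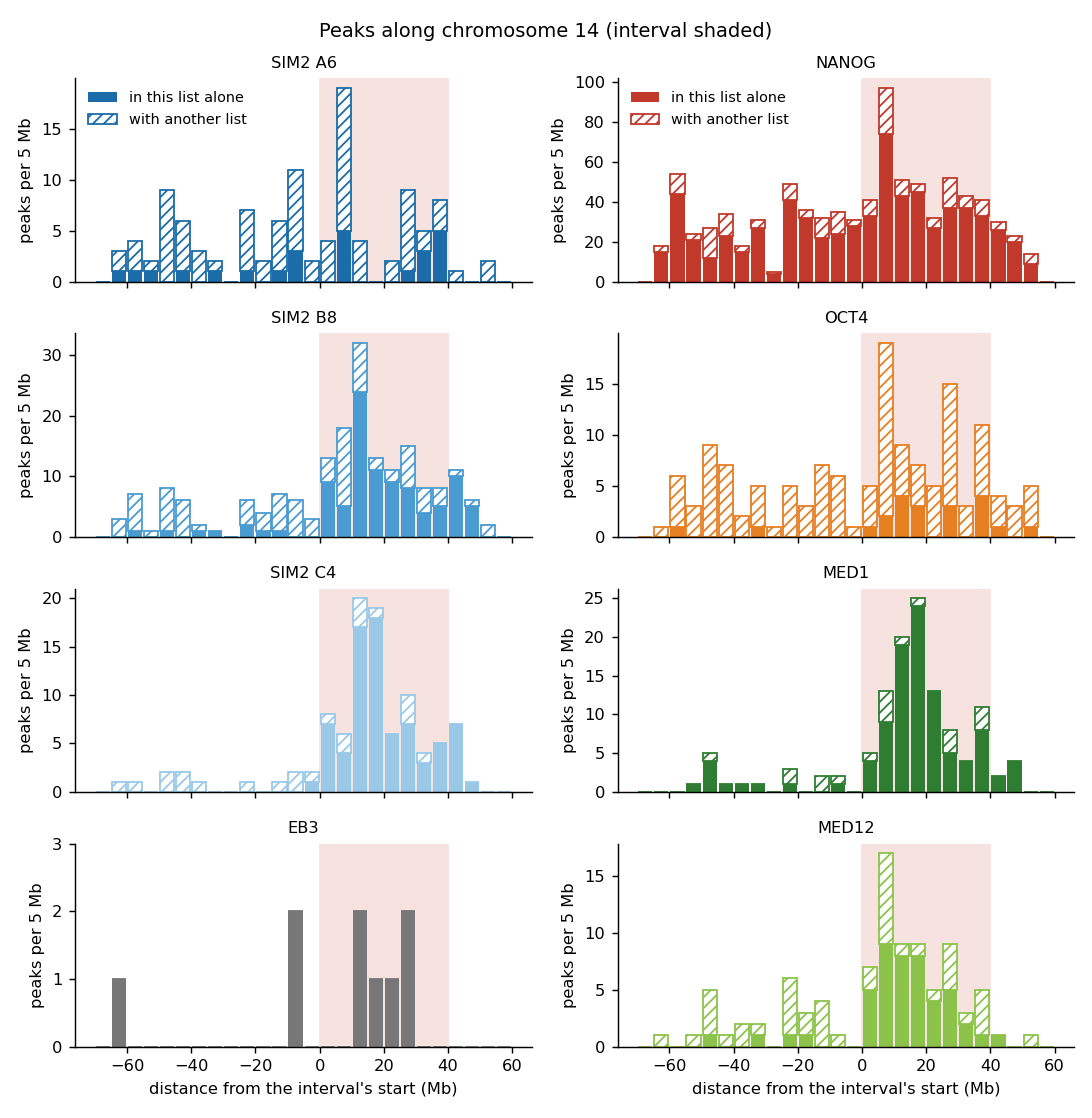
Peaks per 5 Mb along chromosome 14 by distance from the interval's start (Mb), 1 panel per list, with peaks found in that list alone (filled) and peaks with another list within 100 bp (hatched); the shaded area is the interval. Inside the shaded area the filled parts add up to 75 of 118 peaks in B8, 67 of 78 in C4, 86 of 99 in MED1 and 42 of 64 in MED12.

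Most members coincided with no other list. A peak was called shared when the centre of a peak of any other list lay within 100 bp, and alone otherwise. Of the 896 members, 260 were shared and 636 alone, and in the rest of the chromosome 303 were shared and 433 alone. In B8, 43 of 118 members (36.4%) were shared, against 68.5% in the rest of chromosome 14 and 76.2% over the whole list. C4 had 11 of 78 shared (14.1%), against 57.1% in the rest and 66.9% over the list. MED12 had 22 of 64 (34.4%), against 82.1% and 79.2%. For MED1 the values were 13 of 99 (13.1%), 27.3% and 48.4%. OCT4 had 57 of 74 (77.0%), against 94.1% and 91.2%. For A6, 37 of 51 members (72.5%) were shared, against 83.3% in the rest and 81.7% over the list. For NANOG the shares were closer together, with 77 of 406 (18.97%), 21.3% in the rest and 23.7% over the list. The Wilson 95% intervals of the shares inside and outside overlapped in A6, NANOG and MED1, and did not in B8, C4, OCT4 and MED12. They cover counting error only. This is no test, since peaks of a library are not replicates and the interval was chosen from these peaks. None of the 6 EB3 members was shared, against 12.3% of all EB3 peaks.

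The excess of peaks differed between both kinds. For shared peaks the density ratio of interval to rest was 1.51 in A6, 1.76 in B8 and 1.87 in C4, with a mean of 1.71 ± 0.18 (SD, n = 3). For peaks alone it was 2.86, 6.66 and 15.2, with a mean of 8.24 ± 6.32. NANOG had 1.60 for shared peaks and 1.85 for peaks alone. OCT4 had 1.82 and 8.67, the latter from 17 members and 4 peaks in the rest. MED12 had 1.95 and 17.1, the latter from 42 members and 5 peaks in the rest. In MED1 the ratio of shared peaks was 4.42, from 13 members and 6 peaks in the rest, and that of peaks alone was 11.0. The clones' ratios were close for shared peaks and far apart for those found in 1 list. The shared peaks of the clones are in large part the same places. All 11 shared C4 members had a B8 peak within 100 bp, as had 27 of the 37 shared A6 members. Their small SD is therefore partly set by the definition of shared.

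The peaks alone also differed in base composition and place. The median GC content of their 200 bp windows was 32% in B8, 29.5% in C4, 30.3% in MED1, 30% in MED12, 27.5% in OCT4 and 28.5% in EB3. Members alone in A6 had 50% and in NANOG 37%. The shared members of the same lists had between 40% (OCT4) and 47% (A6). Low GC was also seen in peaks alone outside the interval, with 32.5% in B8, 28.5% in C4 and 31% in MED1, but not in the 3 EB3 peaks outside, whose median was 50%. Over all lists, 38.2% of the members alone and 64.6% of the shared members lay within 100 kb of a transcription start site, while 35.0% of the interval itself lay so near a start. A6 went the other way, with 85.7% of its 14 members alone and 75.7% of its shared members. The other lists with both kinds had the lower share among members alone. Pooled over the lists, members alone were 197606 bp from the nearest start at the median, and shared members 41196 bp. Intergenic positions held 675 of the 896 members, introns 193, promoters (1 kb upstream to 300 bp downstream of a start) 20 and exons 8.

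With a wider window more members had a peak of another list nearby. Within 10 kb, 26 of the 78 C4 members (33.3%) and 67 of the 118 B8 members (56.8%) had a peak of another list, against 66.7% and 72.6% in the rest of the chromosome. MED12 had 37 of 64 (57.8%), against 96.4% in the rest. MED1 rose from 13.1% within 100 bp to 45 of 99 within 10 kb (45.5%), near the 50% in the rest. NANOG went the other way, with 150 of 406 (36.9%) in the interval and 30.4% in the rest. MED1 and MED12, subunits of 1 complex, met within 100 bp at only 6 places in the interval, 6.06% of the MED1 and 9.38% of the MED12 members. In the rest they met at 6 places as well, 27.3% of the MED1 and 21.4% of the MED12 peaks. Over the whole lists they met at 29.8% of the MED1 and 21.2% of the MED12 peaks. Shares within 10 kb were computed on chromosome 14 only.

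Member peaks stood less far above their surroundings than peaks in the rest of chromosome 14, in all 8 lists. This height is the fold of the tags under a peak over the tags that the region around it would give, as HOMER computed it. Its median in the interval and in the rest was 8.71 and 14.4 in A6, 6.30 and 10.2 in B8, and 5.84 and 9.95 in C4. The ratio of these medians was 0.603 ± 0.015 (SD, n = 3) over the clones. In EB3 the 6 members had between 4.25 and 6.47, and the median of the 3 peaks outside was 14.8. The medians were 6.84 and 10.9 in NANOG, 6.52 and 8.51 in OCT4, 4.91 and 8.17 in MED1, and 5.14 and 9.94 in MED12. At least 8 times the surroundings was reached by 29 of the 51 A6 members (56.9%), against 93% of all A6 peaks. It was reached by 30 of 118 in B8 (25.4%, against 87.5% of the list), 15 of 78 in C4 (19.2%, against 82.6%) and none of 6 in EB3 (77.8%). The counts were 144 of 406 in NANOG (35.5%, against 79.5%), 21 of 74 in OCT4 (28.4%, against 70.7%), 7 of 99 in MED1 (7.07%, against 35%) and 10 of 64 in MED12 (15.6%, against 53.9%).

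The shared members were the taller ones. Among them 27 of 37 in A6, 26 of 43 in B8 and 7 of 11 in C4 reached 8 times the surroundings. Among those alone 2 of 14, 4 of 75 and 8 of 67 did. On the other autosomes 93.9%, 94.7% and 97.2% of the clones' shared peaks did so, and 92.1%, 78.9% and 78.8% of those alone. Both kinds were thus lower in the interval than on the other autosomes. In the rest of chromosome 14, 100%, 47.8% and 11.1% of the clones' peaks alone did so. The last is 1 of 9 C4 peaks, near the 11.9% of the C4 members alone. No OCT4 member alone did so, and 21 of 57 shared ones did, against 48.0% and 73.8% on the other autosomes. Counting only peaks of at least 8 times the surroundings, a limit chosen after seeing the data, the density ratio of interval to rest was 0.803 in NANOG and 0.857 in OCT4, below 1, and was 1.19 in MED1 and 1.02 in MED12. Clones A6 and B8 had 1.003 and 1.02 under this limit, and C4 had 2.35, from 15 members and 13 peaks in the rest. The clone mean was 1.46 in place of 4.205. The limit is set on the same fold that was lower in the interval, so it removes more peaks there by its definition. With peaks at least 8 times the input the clone mean was 3.64.

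**Figure D3:**
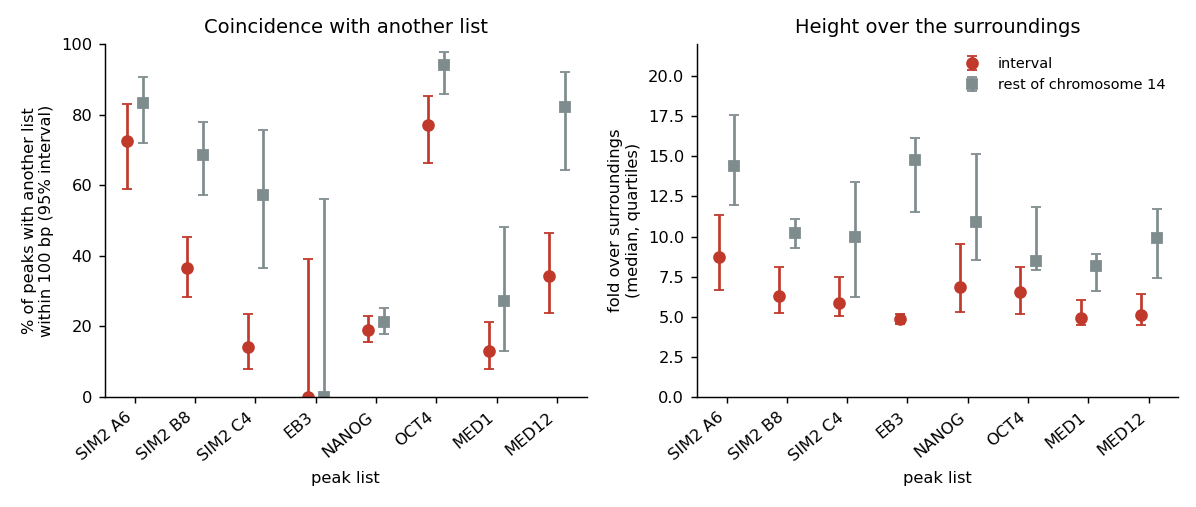
Left, percentage of peaks with a peak of another list within 100 bp, with Wilson 95% intervals; right, median fold over the surroundings with quartiles; circles are the interval and squares the rest of chromosome 14. In the right panel the circle is below the square in all 8 lists; in the left panel it is lowest against its square in C4 and MED12, and in EB3 both shares are 0.

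The tags in the surroundings were higher in the interval than in the rest of the chromosome, whichever antibody was used. This level, chosen as a measure after seeing the data, is the tags under a peak divided by its fold over the surroundings. In A6 its median was 1.77 tags per peak width inside and 0.951 in the rest. In B8 it was 2.02 and 1.18, and in C4 1.99 and 1.20. The ratios were 1.86, 1.72 and 1.66, with a mean of 1.75 ± 0.10 (SD, n = 3). In the EB3 control, without SIM2-FLAG, the ratio was 1.76, and the lowest of its 6 members (3.04) exceeded the highest of the 3 peaks outside (1.92). The ratio was 1.55 in NANOG, 1.83 in OCT4, 1.46 in MED1 and 1.504 in MED12. Many peaks outside the interval shared the lowest level that a list contains, so that in B8 the median in the rest (1.18) was almost its lowest value (1.17). These ratios are therefore partly set against a floor.

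Shared peaks had this difference too. Their ratio of interval to rest was 1.70 in A6, 1.63 in B8 and 1.67 in C4, with a mean of 1.67 ± 0.03 (SD, n = 3). For the peaks alone it was 2.06, 1.41 and 1.13, the last from only 9 peaks outside. The small SD for shared peaks again partly reflects that the clones share many of these places. The interval's level also exceeded the highest whole-chromosome median of any other autosome in 7 lists. In NANOG, for example, it was 2.11 against 1.53 on chromosome 15. The exception was MED1, with 3.10 against 3.25 on chromosome 19. The comparison sets a stretch chosen from its peaks against whole chromosomes, and stretches of equal length elsewhere were not examined. Whole chromosome 14, interval included, exceeded the other autosomes in the same 7 lists, with 1.78 in NANOG, and had 2.88 in MED1. In the rest of chromosome 14 the level was between 0.862 times (MED1) and 1.09 times (C4) that of the other autosomes.

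The level stepped up near the lower edge. In 2 Mb bins of NANOG peaks the level was 0.975 times the median of the rest between 68 and 70 Mb, 1.31 times between 70 and 72 Mb and 1.70 times between 72 and 74 Mb. Up to 110 Mb it stayed between 1.06 and 1.87 times. It did not end at the upper edge, being 1.23, 1.29, 1.70 and 1.20 times in the 4 bins from 110 to 118 Mb and 0.794 times from 118 to 120 Mb, where 7 peaks lay.

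**Figure D4:**
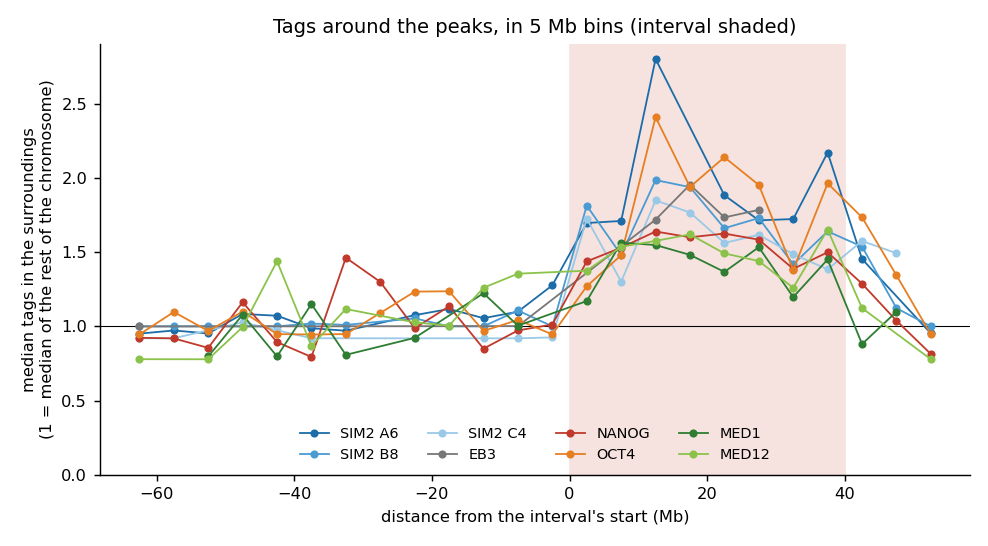
Median tags in the surroundings of the peaks of each list in 5 Mb bins, divided by the list's median over the rest of chromosome 14, against distance from the interval's start (Mb); bins without a peak are left out and many bins hold few peaks. The 8 lines scatter around 1 before the interval and lie above 1 in all of its bins that hold a peak.

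Over the input, at least 8 times was reached by 21 of the 51 A6 members (36% of the whole list), 13 of 118 in B8 (13.7%), 5 of 78 in C4 (12.5%), none of 6 in EB3 (19.8%), 113 of 406 in NANOG (38.6%), 17 of 74 in OCT4 (13%), 2 of 99 in MED1 (6.82%) and 5 of 64 in MED12 (13%). The members' share was above that of the list in A6 (41.2%) and OCT4 (23.0%) and below it in the other lists. Against the rest of chromosome 14 it was above in B8 (11.0% and 8.22%) and OCT4 (23.0% and 14.7%). It was below in the other lists, A6 among them (41.2% and 51.7%).

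Input tags moved in part with the level of the surroundings. Control Tags, the input tags under a peak, had the same median inside and outside in all 8 lists, since most peaks sit at the lowest value of their list. The share of peaks above that lowest value was 31.4% inside and 13.3% outside in A6 (12.9% over the list), 13.6% and 8.22% in B8 (7.72%), and 35.9% and 14.3% in C4 (16%). NANOG and OCT4, called against 1 common input, had 19.5% and 24.3% inside, 5.86% and 7.35% outside, and 6.12% and 9.64% over the lists. MED12 had 25% and 17.9% (18.7% over the list), whereas MED1, called against the same input, had 14.1% and 22.7% (22.2%). No EB3 peak of chromosome 14 was above the lowest value. The part of the input, of base composition and of the tags in the surroundings in the density of peaks was not tested.

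The scores of the members were close to those of other peaks in the 3 clones, OCT4 and MED1, and lower in NANOG, MED12 and EB3. The score is HOMER's own measure of the tags at a peak and is compared only within a list. Its median inside and outside was 30 and 30 in A6, 12 and 13 in B8, 12 and 12 in C4, 14 and 16 in NANOG, 34.5 and 33 in OCT4, 15 and 16 in MED1, and 16 and 20 in MED12. EB3, with 3 peaks outside, had 19 and 32. The ratio of medians was 0.875 in NANOG, 0.800 in MED12 and 0.594 in EB3. Over the clones the ratio was 0.974 ± 0.044 (SD, n = 3). Shared members scored higher than those alone, with medians of 17 and 12 in both B8 and C4, 36 and 13 in NANOG, 40 and 28 in OCT4, and 23 and 15 in MED1.

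A few places held peaks of nearly all lists. Member peaks chained at gaps of up to 10 kb formed 559 loci, of which 426 held a single list, 80 held 2, and 10 held at least 6. The 3 loci with 7 lists, all but EB3, were 2 of the loci nearest to Klf5 and 1 nearest to Tsc22d1, the gene of a leucine-zipper protein induced by TGF-beta. The loci with 6 lists had Spry2, Gm6994, Pcdh9, Slc39a14, Tnfsf11, Pcdh17 and Gm10110 as nearest genes. Spry2 encodes a feedback inhibitor of receptor tyrosine kinase signalling, Slc39a14 a zinc transporter, and Pcdh9 and Pcdh17 are protocadherins, adhesion proteins of the nervous system.

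The sites with SIM2 in several clones were few beside the members. Peaks of the clones with centres within 100 bp of each other were joined to sites of 100 bp, those near an EB3 peak were left out, and a site had to occur in at least 2 clones. A factor was counted as present at a site when any part of its peak lay within 100 bp of the site's edges. The interval held 28 such sites and the rest of chromosome 14 held 34, of 1229 in the genome. This was 0.700 and 0.416 per Mb, a ratio of 1.68 (0.982 to 2.86), against 1.73 for all A6 peaks, 3.30 for B8 and 7.58 for C4. In all 3 clones lay 10 of the 28 sites (346 of the 1229, 28.2%, in the genome), with 17 in A6 and B8 and 1 in B8 and C4. Another clone also had 27 of the 51 A6 sites (52.9%; 56.7% in the rest). It had 28 of 118 B8 sites (23.7%; 46.6% in the rest), and 11 of 78 C4 sites (14.1%; 52.4% in the rest). Without A6 the count of sites was 11, and without B8 it was 10.

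The site with the highest score in every clone was the first Klf5 site (chr14:99723942-99724041), 26081 bp downstream of the Klf5 start. It scored 84 in A6 (4th of 2387 peaks), 41 in B8 (6th of 2137) and 29 in C4 (11th of 631). OCT4 scored 65 there, NANOG 60, MED12 58 and MED1 49. Near it, the second Klf5 site (chr14:99739047-99739146) scored 68, 24 and 19 in A6, B8 and C4, with OCT4 at 87, NANOG at 73, MED12 at 61 and MED1 at 47. The third (chr14:99739498-99739597), whose window carries an octamer, scored 60, 24 and 14, with OCT4 at 47 and NANOG at 46 but no Mediator peak within 100 bp. Another (chr14:99909476-99909575) was found in A6 and B8 with scores of 22 and 15. Within 100 kb of the Klf5 start lay 35 members of 7 lists, of which 10 were alone.

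Further sites in all 3 clones had a NANOG peak, and most an OCT4 peak, but no Mediator peak within 100 bp. The site nearest to Fndc3a (chr14:73245890-73245989), upstream of its start, scored 80, 35 and 20 in A6, B8 and C4. NANOG scored 58 and OCT4 70 there. At the site nearest to Olfm4, shown above (chr14:81399012-81399111), the SIM2 scores were 56, 27 and 28, and those of NANOG and OCT4 were 60 and 70. This site lies in the stretch with few genes, as does one nearest to Pcdh17 (chr14:83408532-83408631) that scored 58, 31 and 20, with NANOG at 80 and OCT4 at 79. The locus of the Pcdh17 site also held a MED12 peak, farther than 100 bp from the site's edges. The site near Zc3h13, whose product takes part in RNA methylation (chr14:75767440-75767539), scored 49, 18 and 12 with both factors present. The site near Klf12 (chr14:100609185-100609284), a repressor of the Klf5 family, scored 62, 23 and 17 with a NANOG peak of score 16 only.

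Sites without any of the 4 factors were found as well. The promoter of Pcdh17 held a site in all 3 clones (chr14:84843332-84843431, centred 11 bp from the start) with scores of 43, 15 and 12. An intron of Tsc22d1 held another (chr14:76905772-76905871), with scores of 47, 14 and 15. The third lay near 1190002H23Rik in A6 and B8. At the Tnfsf11 site (chr14:78688971-78689070) SIM2 scored 45 in A6 and 20 in B8 and was not called in C4, whereas NANOG scored 135 (5th of 14815 peaks) and OCT4 125 (2nd of 2532), with MED12 at 45 and MED1 at 29. The highest Mediator scores of the interval were in an intron of Enox1, upstream of Gm6994, whose start is the nearest (chr14:77919457-77919556). MED12 scored 78 (4th of 1071) and MED1 63 (15th of 762). There NANOG scored 96, OCT4 89, A6 34 and B8 21. Near Pcdh9 (chr14:93225981-93226080) NANOG scored 116 (11th) and OCT4 78, beside SIM2 scores of 23 in A6 and 15 in B8.

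**Figure D5:**
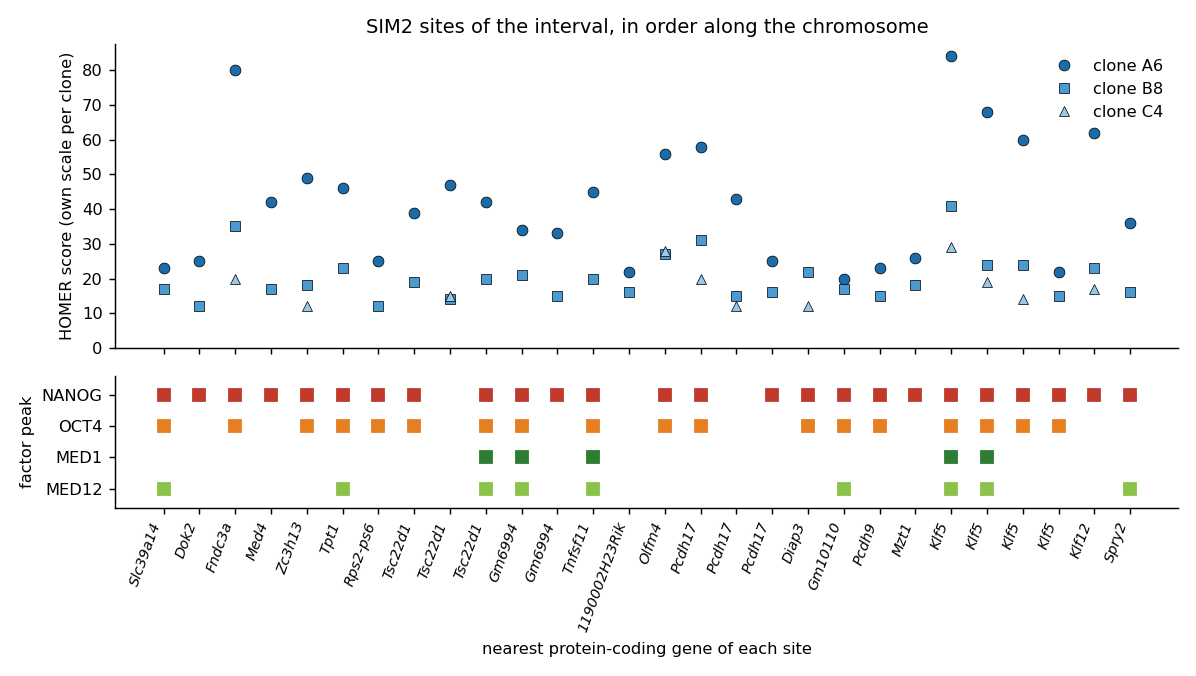
The 28 SIM2 sites of the interval in order along the chromosome, named by nearest gene; above, HOMER score in clone A6 (circles), B8 (squares) and C4 (triangles), which can be compared only within a clone, and blank where the clone had no peak; below, squares mark a NANOG, OCT4, MED1 or MED12 peak with any part within 100 bp of the site's edges. The tallest sites are those at Fndc3a and Klf5, and the 5 sites with a MED1 peak carry all 4 factors.

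NANOG was present at 25 of the 28 sites, 89.3% (Wilson 95% interval 72.8 to 96.3), against 82.4% in the rest of chromosome 14 and 82% over the genome. OCT4 was present at 18, 64.3% (45.8 to 79.3), against 38.2% and 46.2%. MED12 was present at 9, 32.1% (17.9 to 50.7), against 32.4% and 28.4%. MED1 was present at 5, 17.9% (7.88 to 35.6), against 14.7% and 12%. The 4 intervals all contained the genome's share, that of OCT4 only near its lower end. They also contained the share of the rest of chromosome 14, except in OCT4, where the 38.2% lay below the interval. These intervals cover counting error only, and sites are not replicates. NANOG with OCT4 and without Mediator was the most frequent set, at 10 sites, then NANOG alone at 6 and all 4 factors at 5.

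Genes that regulate pluripotency or growth signals lay near several of these places. Of the 8 listed genes of this kind, 7 had a member within 100 kb of the start and 4 had a SIM2 site there, against 119 (91.5%) and 31 (23.8%) of all 130 genes. Their median was 7.5 members, against 6 over all 130. The 3 gene lists used here were chosen with earlier results of these data known, so these shares are descriptions only. The paper had already given Klf5 and Tsc22d1 as putative SIM2 targets. Klf5 and Tsc22d1 had 3 sites each, and Spry2 and Klf12 had 1 each. Around Spry2 lay 34 members, with 10 NANOG, 6 A6, 6 OCT4, 5 MED1, 4 MED12 and 3 B8 peaks, and 12 of the 34 were alone. Around Tsc22d1 lay 27 members. The site upstream of Spry2 (chr14:106319649-106319748) scored 36 in A6 and 16 in B8, with MED12 at 18 and NANOG at 24. Around Fgf17, a growth factor gene, lay 6 members, while Dach1, a transcriptional cofactor, had 3, the metalloproteinase gene Bmp1 had 1 and the immediate-early gene Egr3 had none.

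The genes of neural adhesion and receptors had fewer members near their starts. All 11 listed genes that start in the interval had a member within 100 kb, against 91.5% of all 130 genes. The median was 3 members against 6 over all 130. Of the 11 only Pcdh17 had a SIM2 site, against 23.8% of all 130. The list also holds Scel and Olfm4, which are known from epithelia. Pcdh17 had 10 members within 100 kb, and it was the nearest gene of 114 members, 94 of them alone, across the wide empty stretch around it. These 114 were 32 NANOG, 22 B8, 22 MED1, 20 C4, 8 MED12, 5 OCT4, 3 A6 and 2 EB3 peaks. Olfm4 was nearest to 58 members with 2 within 100 kb, and Pcdh9 to 41 with 1. The serotonin receptor gene Htr2a had 3 members near it, the endothelin receptor gene Ednrb 4 and the neuronal factor gene Pou4f1 1.

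Of the genes of the cell cycle and housekeeping, all 19 that start in the interval had a member within 100 kb, against 91.5% of all 130. The median of the 19 was 8 members, above the 6 of all 130 genes, and 7 of the 19 (36.8%) had a SIM2 site, against 23.8%. Neighbouring starts share members and sites, as those of Med4 and Sucla2 do. Med4, itself a Mediator subunit gene, had 8 members near it and a site upstream of it in A6 and B8 (chr14:73870619-73870718, scores of 42 and 17). Tpt1, the gene of an abundant growth-related protein, had a site 18419 bp downstream with NANOG, OCT4 and MED12. Around the tumour suppressor gene Rb1 lay 12 members, 10 of them alone and 8 of NANOG, and no site. Diap3, a formin gene, had 9 members near it, all from NANOG and all alone.

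The EB3 control had its 6 members in the stretch with few genes between 80 and 100 Mb. Their nearest genes were Pcdh17 (2 peaks), Olfm4, Gm10110, Klhl1 and Dach1. The scores were 23 and 19 for the Pcdh17 peaks, 20 for Olfm4, 19 for Klhl1 and 18 for both Gm10110 and Dach1. None was within 100 bp of a peak of a clone, so no SIM2 site of the interval was lost to the control.

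Motifs were counted as exact matches on either strand in 200 bp windows, with the share of all 200 bp tiles of the interval beside them. None of these motifs contains another. The octamer ATGCAAAT was in 3 of the 28 sites (10.7%), in 11.2% of the shared members and 4.25% of those alone, against 2.05% of the tiles. Over the genome 7.40% of the sites had it. In the rest of the chromosome 10.9% of the shared peaks and 6.93% of those alone had it. ACAAAG was in 8 of the 28 (28.6%), 31.2% of the shared and 24.4% of those alone, against 18.5% of the tiles. These were below its 33.6% of the genome's sites and 40.6% and 33.5% of shared peaks and peaks alone in the rest. The KLF-like motif CCACACCC was in no site, 1.15% of the shared members and 1.42% of those alone, against 0.846% of the tiles. Its shares in the same 3 sets elsewhere were 3.91%, 3.96% and 3.23%. ACGTG, the core bound by bHLH-PAS dimers, was in none of the 28 sites, for which the Wilson interval reaches 12.1%. It was in 5 of the 34 sites in the rest of the chromosome (14.7%), in 14.1% of the sites of the genome and in 6.19% of the interval's tiles. A match to these letters is a description of the sequence and does not show binding.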

How the data were processed

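FLAG ChIP of 3 clones (A6, B8 and C4, the replicates) and of EB3, and NANOG, OCT4, MED1 and MED12 ChIP of A6, gave 8 peak lists of the 14 samples, the other 6 being inputs without a list. Per the labels and methods, the authors digested chromatin with micrococcal nuclease and sonicated it, mapped reads to mm9 with BWA and then, with duplicates removed, ran HOMER at default settings to call peaks in every library over its input. Tool versions are not given in the sources used here. In the lists the authors deposited, the normalized tag count is a signal scaled to library size, and Control Tags are an input signal. Total tags are whole counts in 5 deposited lists and scaled in A6, EB3 and OCT4. The deposited focus ratio is a fraction. The deposited score is HOMER's own. The deposited fold is a ratio over input or surroundings, and the deposited p-value columns were not used. Library depth is not given in the lists, and a deeper library can give more peaks, so densities were compared within lists.

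Members, measures and gene lists were chosen with earlier results of these data known. Lengths exclude N. Densities carry exact Poisson, their ratios exact binomial and shares Wilson 95% intervals, for counting error only. No test was made, since peaks of a library are not replicates. Genes are protein-coding genes of GENCODE vM1 on the same build, matched by nearest start. Sequences were read from the NCBIM37 (mm9) genome. Genes named were the nearest of the loci with the most lists, of the 2 highest scores per list, of all EB3 members and of sites in all 3 clones, plus 3 gene lists. Of these lists Slitrk6 and Bora do not start in the interval. Genes of single sites outside this rule, such as 1190002H23Rik, Sorbs3, Tdrd3 and Enox1, were chosen after their values were seen. Alternatives covered the peak threshold, the edges, the background, the statistic and each clone left out. SOX2 was not analysed here. The steps were tested on simulated data and run with Python 3.11.15, numpy 2.4.6, pandas 2.3.3, scipy 1.17.1 and matplotlib 3.10.9.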

Additional observations from a re-analysis of the deposited data

How the results depend on the processing

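Of the 276 values recomputed under an alternative, 187 stayed within the interval or SD of the main value. For the number of SIM2 sites a fixed fold was used instead. Another 85 moved further, and 4 turned to the other side of 1. Only main values whose interval or SD excluded 1 could count as turned, so other values may also have crossed 1. No paired analysis was possible because the results come from no test. The 4 that turned were the density ratios of NANOG (0.803) and OCT4 (0.857) among peaks at least 8 times the surroundings, and the score ratios of NANOG (1.29) and MED12 (2.00, from 5 and 4 peaks) among peaks at least 8 times the input. The cause was not tested.

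Ratios of density. Peaks at least 8 times the input gave 1.46 in NANOG, 3.47 in OCT4, 4.08 in MED1 (from 2 peaks inside and 1 outside) and 2.55 in MED12 (from 5 and 4). Both edges moved down by 5 Mb gave 5.44 in MED1. Per transcription start site in place of Mb the ratios were 5.22 in NANOG, 6.45 in OCT4, 26.7 in MED1, 13.6 in MED12 and 12.2 over the clones. Peaks at least 8 times the surroundings gave 1.19 in MED1, 1.02 in MED12, 1.003 in A6, 1.02 in B8 and 2.35 in C4, with a clone mean of 1.46. Shared peaks gave 4.42 in MED1 and 1.95 in MED12, and peaks alone gave 8.67 in OCT4, 17.1 in MED12 and 8.24 over the clones. Leaving out each clone gave means from 2.52 to 5.44.

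Ratios of score. Over the clones they were 0.925 with peaks at least 8 times the input, 0.919 with normalized tag counts and 1.02 with both edges moved down by 5 Mb. MED12 had 0.896 with normalized tag counts. Means of log2 scores gave 0.943 in NANOG, 0.933 in MED1 and 0.901 in MED12.

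Ratios of Control Tags. Means gave 1.06 in NANOG, 1.05 in OCT4, 0.996 in MED1, 1.06 in MED12 and 1.05 over the clones. Shares above the lowest value gave 3.32, 3.31, 0.622, 1.40 and 2.17 in that order. MED12 had 1.21 with peaks at least 8 times the input.

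Ratios of tags in the surroundings. Peaks at least 8 times the input gave 1.63 in NANOG, 2.33 in OCT4 and 2.21 in MED12. Means gave 1.48 in NANOG, 1.64 in OCT4 and 1.57 over the clones. Both edges moved down by 5 Mb gave 1.46 in NANOG, 1.65 in OCT4, 1.31 in MED1 and 1.59 over the clones, and moved up by 5 Mb gave 1.35 in MED1 and 1.38 in MED12. Against the other autosomes MED1 had 1.26 and MED12 1.39.

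SIM2 sites. Their number was 10 with peaks at least 8 times the input, 10 in all 3 clones, and 10 to 27 with each clone left out. With partner peaks at least 8 times the input, 71.4% had NANOG, 35.7% OCT4, 3.57% MED1 and 17.9% MED12.

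Peaks below HOMER's thresholds, tags away from peaks and the copy number of the interval were not measured here. The NANOG, OCT4, MED1, MED12 and EB3 lists come from 1 library each.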

Other observations

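The interval also held wide stretches without a member of any list. The longest, 638518 bp, lay around 1700110M21Rik (chr14:101106754-101745272), between 2 NANOG peaks. The next, 505879 bp at chr14:93482580-93988459, lay over Pcdh9 and held no gene start. Another 386596 bp were free of members between Trim52 and Gm4666 (chr14:106639941-107026537). These genes were chosen after their values were seen.

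In the 5 Mb beyond the upper edge, B8 had 11 peaks and C4 had 7, against 6 and 2 between 60 and 65 Mb, and these stretches held 4 and 51 gene starts. MED1 had 2 in either stretch, and NANOG had 30 and 35. Next to the lower edge, between 65 and 70 Mb, lay 3 B8, 2 C4 and 31 NANOG peaks and none of MED1. That stretch held 50 gene starts.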
